A study of Sus scrofa with 6 samples.

Results

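The 3 calgranulin genes S100A8, S100A9 and S100A12 were followed in RNA from pig peripheral blood mononuclear cells (PBMCs). They were chosen by symbol, after earlier results had shown that their levels spread widely among the 6 libraries and moved together, and they are 3 of the 11564 genes in the table. RNA-seq was done on PBMCs of 6 Yorkshire pigs aged 6 months, with 3 libraries labelled WT (nontransgenic controls) and 3 labelled Leptin-overexpressing. The transgenic pigs were cloned by nuclear transfer from transfected fetal fibroblasts, with pig leptin expressed from the pig leptin promoter, and how many cell clones the 3 animals stem from is not given in the sources used here. Levels are FPKM (fragments scaled by transcript length and by the fragments mapped in the library). Comparisons between libraries still depend on the scaling, and results with median-of-ratios scaling are given below.

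RNA of the gene used as the transgene did not follow the labels. LEP, which encodes leptin, had 50.01 FPKM in the library labelled WT replicate 1, a listed value of 0 in WT replicate 2 and 0.118 FPKM in WT replicate 3. Among the libraries labelled Leptin-overexpressing, replicate 1 had a listed value of 0, and replicates 2 and 3 had 18.3 and 39.3 FPKM. Both replicate 1 libraries therefore went against their labels. Every comparison below is between labels, and the differences in the calgranulins are given with these libraries and without them.

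Calgranulins are small calcium-binding proteins of the S100 family that neutrophils and monocytes hold in their cytoplasm. S100A8 and S100A9 pair to form calprotectin, which binds zinc and manganese and withholds them from microbes, and S100A12 is a separate calgranulin that also binds zinc. When released by activated or dying phagocytes they act as alarm signals on Toll-like receptor 4 and on RAGE, the receptor for advanced glycation end products. Raised calgranulins in blood are a widely used sign of myeloid inflammation.

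PBMC preparations hold lymphocytes and monocytes, and their defining genes were present in all 6 libraries. CD3E of T cells lay between 213.0 and 372.2 FPKM, CD79A of B cells between 132.6 and 248.3 FPKM, and the monocyte gene CD14 between 99.9 and 291.4 FPKM. FPKM summed over all genes in the table ran from 444888 to 449653 in the libraries labelled WT and from 467276 to 503140 in those labelled Leptin-overexpressing. The labels name no batch, and a smaller number of cells of a type cannot be told apart from less RNA per cell in such libraries.

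S100A8, the smaller partner of calprotectin, is ENSSSCG00000006590 on chromosome 4, from 105091815 to 105092868 in the table's coordinates, for which the table names no genome build. Its level was 698.9, 119.9 and 66.5 FPKM in the libraries labelled WT replicates 1, 2 and 3, and 68.6, 225.1 and 109.8 FPKM in those labelled Leptin-overexpressing replicates 1, 2 and 3. The library labelled WT replicate 1 stood alone at the top, and the other 5 libraries of the labels were interleaved. The top library was 3.11-fold above the next and 10.5-fold above the lowest, WT replicate 3. By mean and SD, S100A8 was at 295.1 ± 350.7 FPKM under the WT label and 134.5 ± 81.1 FPKM under the Leptin-overexpressing label (n = 3 each), with medians of 119.9 and 109.8 FPKM.

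S100A9, the larger partner of calprotectin, is ENSSSCG00000006588 on chromosome 4, from 105063476 to 105066298. Its level was 1031 FPKM in WT replicate 1, 243.9 in WT replicate 2 and 93.2 in WT replicate 3, against 98.0, 370.1 and 163.5 FPKM in Leptin-overexpressing replicates 1, 2 and 3. The libraries fell in the same order as for S100A8, which from high to low was WT replicate 1, Leptin-overexpressing replicate 2, WT replicate 2, Leptin-overexpressing replicate 3, Leptin-overexpressing replicate 1 and WT replicate 3. The highest was 2.79-fold above the next and 11.1-fold above the lowest. Means were 456.2 ± 503.9 FPKM under the WT label and 210.5 ± 142.1 FPKM under the Leptin-overexpressing label (SD, n = 3 each), with medians of 243.9 and 163.5 FPKM.

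S100A12, a ligand of RAGE, is ENSSSCG00000006589 on chromosome 4, from 105075279 to 105076728. Its level was 1702 FPKM in WT replicate 1, 284.2 in WT replicate 2 and 198.1 in WT replicate 3, against 188.1, 437.1 and 301.4 FPKM in Leptin-overexpressing replicates 1, 2 and 3. WT replicate 1 and Leptin-overexpressing replicate 2 again held the first places, Leptin-overexpressing replicate 3 lay above WT replicate 2, and Leptin-overexpressing replicate 1 was lowest. The highest was 3.89-fold above the next and 9.05-fold above the lowest. Means were 728.3 ± 844.7 FPKM under the WT label and 308.9 ± 124.6 FPKM under the Leptin-overexpressing label (SD, n = 3 each), and the medians of 284.2 and 301.4 FPKM stood in the reverse order.

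**Figure D1:**
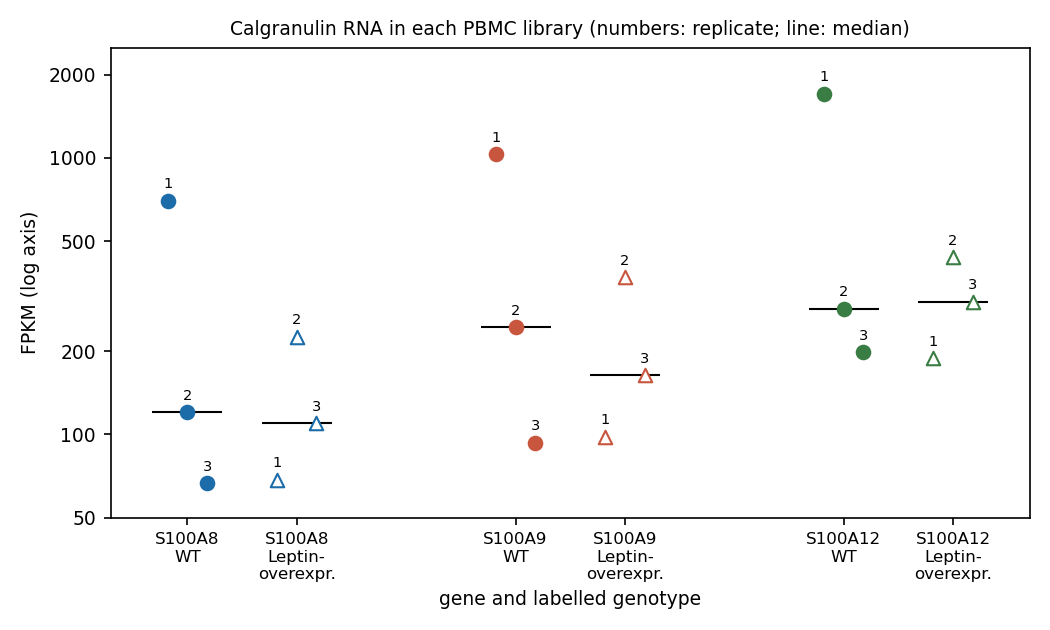
FPKM (log axis) of S100A8, S100A9 and S100A12 in each library, with filled circles for the label WT, open triangles for the label Leptin-overexpressing, numbers for the replicate and lines for the median of 3. WT replicate 1 is the highest point of each gene, at 698.9, 1031 and 1702 FPKM, WT replicate 2 lies among the triangles, and WT replicate 3 lies close to the lowest triangle, at 66.5, 93.2 and 198.1 FPKM.

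Calgranulin RNA was among the abundant RNAs of these cells. Ranked by FPKM within a library, S100A12 stood at place 20 in WT replicate 1 and at place 374 in Leptin-overexpressing replicate 1, the library where it ranked lowest. S100A9 ranged from place 56 to place 738 and S100A8 from place 99 to place 1060. Within every one of the 6 libraries the order of FPKM was S100A12 above S100A9 above S100A8. Together the 3 genes made up 0.772% of all FPKM in WT replicate 1, 0.205% in Leptin-overexpressing replicate 2 and between 0.0709% and 0.144% in the other 4 libraries.

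Few genes spread as widely among the 6 animals. The SD of log2(FPKM + 1) over the 6 libraries was 1.27 for S100A8, 1.31 for S100A9 and 1.17 for S100A12, against a median of 0.219 over the 10735 genes with at least 1 FPKM in at least 3 libraries, and 99.4%, 99.4% and 99.3% of those genes had a smaller SD. With WT replicate 1 left out, the SDs were 0.712, 0.849 and 0.494, with a median of 0.193 over the same genes, and 97.4%, 98.3% and 93.6% of genes had a smaller SD. The remaining 5 libraries still differed by 3.39-fold for S100A8, 3.97-fold for S100A9 and 2.32-fold for S100A12 between highest and lowest. These spreads are part of why the genes were chosen, and they are given without a test.

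The labelled difference was smaller than its error for each of the 3 genes. On the log2(FPKM + 1) scale, the Leptin-overexpressing label minus the WT label was -0.57 with an SE of 0.81 for S100A8, -0.66 with an SE of 0.82 for S100A9 and -0.65 with an SE of 0.73 for S100A12. The SD among the libraries labelled WT was 1.76, 1.74 and 1.66 in that order, and among those labelled Leptin-overexpressing 0.856, 0.962 and 0.607. The labels overlapped for all 3 genes, whereas over all genes tested 7.63% had no overlap. None of the 3 was called higher or lower at an unadjusted p under 0.05 in limma, where 1.98% of genes tested were called higher and 1.19% lower. These are 213 and 128 genes, and with median-of-ratios scaling they were 167 and 249. With Benjamini-Hochberg adjustment limma called 0.00932% of genes, which is 1 gene, the small nucleolar RNA gene SNORD22, named here after its value was seen. As the genes were picked with this contrast known, these counts describe them and carry no test.

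The direction of the difference rested on 1 library. Without WT replicate 1, the labelled difference was 0.41 for S100A8, 0.26 for S100A9 and 0.30 for S100A12, now in favour of the Leptin-overexpressing label. Without both replicate 1 libraries, whose LEP level went against the label, it was 0.81, 0.70 and 0.61. With WT replicate 3 left out, the difference was -1.27, -1.47 and -1.25. The mean under the WT label without replicate 1 was 93.2 FPKM for S100A8, 168.5 FPKM for S100A9 and 241.2 FPKM for S100A12.

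**Figure D2:**
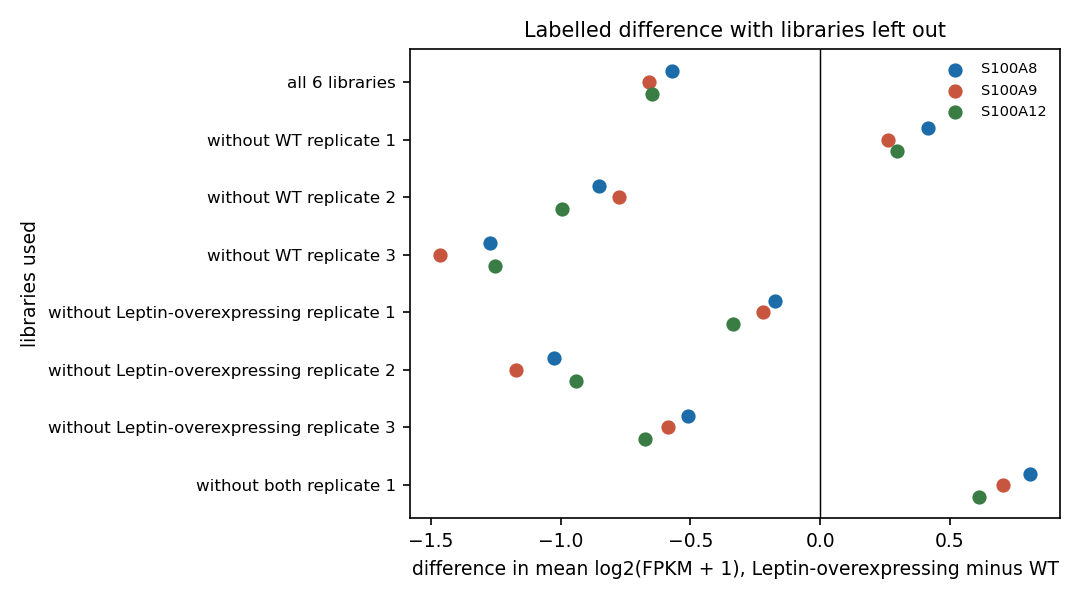
Difference in mean log2(FPKM + 1), Leptin-overexpressing minus WT, for each calgranulin with all 6 libraries and with libraries left out, 1 point per gene and set of libraries. The points lie below 0 in every set shown that keeps WT replicate 1 and above 0 in the sets without it.

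The 3 genes moved together from library to library. Pearson's r of log2(FPKM + 1) over the 6 libraries was 0.988 for S100A8 with S100A9, 0.988 for S100A8 with S100A12 and 0.962 for S100A9 with S100A12, and Spearman's rho was 1, 0.886 and 0.886. Without the pair of libraries farthest from the median, r was 0.969, 0.968 and 0.935 over the other 4, and without WT replicate 1 alone it was 0.975, 0.985 and 0.951 over 5. Taken as deviations from the mean of each label, r was 0.988, 0.989 and 0.959. All points of a correlation share the same 6 libraries and hence any property of a library, and no p is given because the genes were chosen for this pattern.

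Ratios between the genes varied far less than their levels. The ratio of S100A9 to S100A8 was 1.48, 2.03 and 1.40 in WT replicates 1, 2 and 3 and 1.43, 1.64 and 1.49 in Leptin-overexpressing replicates 1, 2 and 3. WT replicate 2 was high in this ratio and the other 5 libraries lay close together, with a mean of 1.58 ± 0.238 (SD, n = 6). The ratio of S100A12 to S100A8 averaged 2.54 ± 0.368 (SD, n = 6), from 1.94 in Leptin-overexpressing replicate 2 to 2.98 in WT replicate 3. The ratio of S100A12 to S100A9 was looser, at 1.65 ± 0.398 (SD, n = 6), and lowest in WT replicate 2 at 1.17 and Leptin-overexpressing replicate 2 at 1.18. Highest and lowest ratios differed by 1.45-fold, 1.54-fold and 1.82-fold, while the levels themselves differed by 9.05-fold to 11.1-fold. In the library labelled WT replicate 1 all 3 levels were highest, and its ratios of 1.48, 2.44 and 1.65 lay inside the range of the other libraries.

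**Figure D3:**
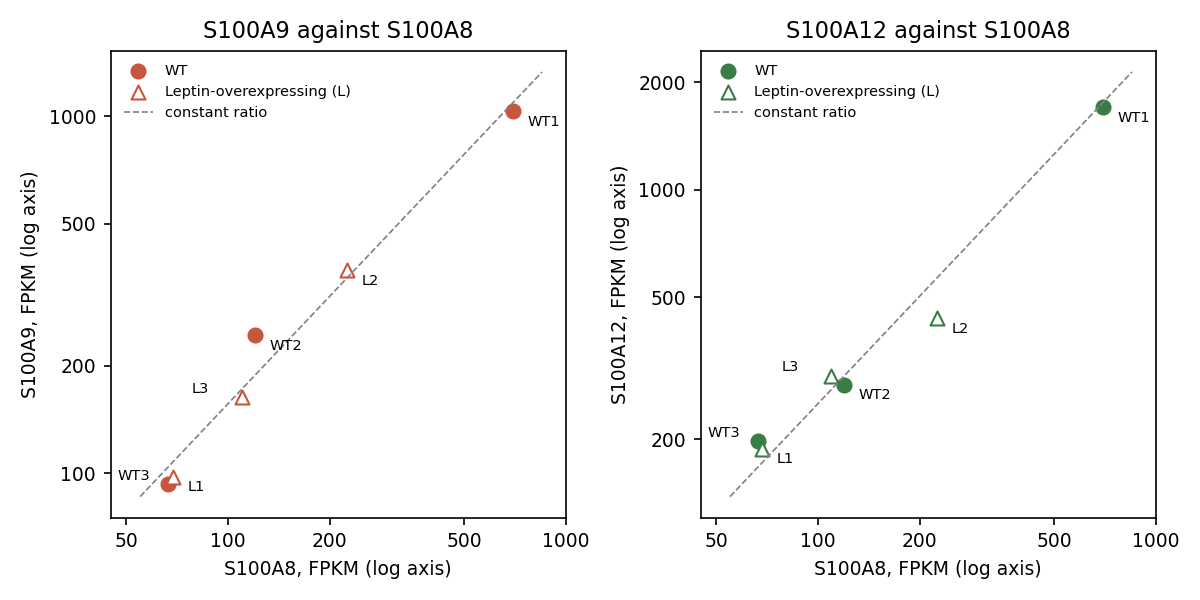
FPKM of S100A9 (left) and S100A12 (right) against S100A8 in the 6 libraries, both axes logarithmic, with filled circles for the label WT, open triangles for the label Leptin-overexpressing (L) and a dashed line of constant ratio. The points follow the line over a 10.5-fold range of S100A8, with r of 0.988 in both panels.

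The genes also lie side by side. In the table's coordinates S100A9, S100A12 and S100A8 follow one another on chromosome 4, with 8980 bases between S100A9 and S100A12 and 15086 bases between S100A12 and S100A8. In the RefSeq annotation of Sscrofa11.1, used here for gene order only, the 3 are consecutive, with S100A7 and an unnamed locus on the side of S100A8 and the peptidoglycan recognition genes PPGRP-S and PGLYRP3 on the side of S100A9. The nearest listed S100 gene before S100A9, S100A14, lies 91860 bases away and was between 0.348 and 1.36 FPKM, so its level was near the limit for testing. The next listed gene after S100A8, S100A11, lies 1101438 bases away, and its level over the 6 libraries had r = 0.644 with the mean of the calgranulins.

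Other S100 proteins stood in other orders across the libraries. Of 17 listed, 8 had a row in the table and 6 were tested, and none of the 6 was highest in WT replicate 1. S100A4, a motility protein of lymphocytes and monocytes, was at 415.0, 613.5 and 789.0 FPKM in WT replicates 1, 2 and 3 and at 832.9, 430.4 and 535.5 FPKM in Leptin-overexpressing replicates 1, 2 and 3. It was lowest where the calgranulins were highest, with r = -0.874 to their mean over 6 libraries and -0.955 without WT replicate 1. S100A2, a low gene at 1.45 to 8.75 FPKM, had r = 0.112 over 6 libraries and 0.927 without WT replicate 1. S100A10, the partner of annexin A2, ranged only from 316.8 to 457.6 FPKM, and S100A11 from 356.6 to 609.9 FPKM. Between the labels, 4 of the 6 tested had a positive difference and 2 a negative one, where 63.1% of all genes tested were positive. None passed the unadjusted or adjusted test in limma. Over all genes tested, 1.98% were higher and 1.19% lower at the unadjusted p, and 0.00932% passed the adjusted p. The median difference was 0.11 against 0.06 over all genes tested. S100PBP, which binds S100P and was kept in the same list, is not an S100 protein and is left out of these counts.

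Annexins, membrane-binding proteins that pair with S100 proteins, had 0 of 7 tested past the unadjusted p in limma between the labels, against 1.98% of all genes higher and 1.19% lower, and a median difference of 0.09 against 0.06. The labels did not overlap for ANXA11, at 84.9 to 97.3 FPKM under the WT label and 102.3 to 114.0 FPKM under the other, which is 1 of 7 against 7.63% of all genes tested. ANXA1, an anti-inflammatory annexin of myeloid cells, ran from 129.4 FPKM in WT replicate 3 to 352.1 FPKM in Leptin-overexpressing replicate 2, with r = 0.749 to the calgranulins. ANXA6, at 106.0 to 150.7 FPKM, had r = -0.663.

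Among the receptors, CD14, the co-receptor that hands ligands to Toll-like receptor 4, had the highest r to the calgranulins over the 6 libraries. CD14 was at 291.4, 159.3 and 99.9 FPKM in WT replicates 1, 2 and 3 and at 121.5, 262.9 and 166.5 FPKM in Leptin-overexpressing replicates 1, 2 and 3. WT replicate 1 and Leptin-overexpressing replicate 2 were again the highest, and r was 0.915 over 6 libraries and 0.970 without WT replicate 1, where OLR1, the lectin-like receptor for oxidised low-density lipoprotein, had a higher r of 0.987 against 0.538 over all 6. LY96, which encodes MD-2, the partner of Toll-like receptor 4, had r = 0.856 over a range of 65.6 to 111.8 FPKM. TLR4 was highest in WT replicate 2, at 114.4 FPKM against 78.2 FPKM in WT replicate 1 and 22.0 to 53.8 FPKM elsewhere, and had r = 0.651. AGER, which encodes RAGE, stayed between 2.31 and 6.18 FPKM and had r = 0.183, and -0.613 without WT replicate 1. Of 9 receptor genes tested, 4 differences were positive and 5 negative, where 63.1% of all genes tested were positive, and none passed the unadjusted p in limma, against 1.98% higher and 1.19% lower. The labels did not overlap for 1 of the 9, the lipoprotein receptor SCARB1, against 7.63% of all genes.

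Signalling genes below these receptors split in their likeness to the calgranulins. MAPK14, the kinase p38 alpha, had r = 0.922, with 102.9 FPKM in WT replicate 1 and 42.9 to 58.7 FPKM in the other 5. Without WT replicate 1 its r was 0.612. TIRAP, an adaptor of the same receptor, had r = -0.906. Between the labels, 10 of 17 tested differences were positive, against 63.1% of all genes tested, and 1 passed the unadjusted p in limma, against 1.98% called higher. That gene was NFKBIA, the inhibitor of NF-kB, with a difference of 0.72 (SE 0.26, Benjamini-Hochberg adjusted p = 0.993 in limma), and its labels overlapped. NFKBIA lost the unadjusted call under 4 of 14 alternative settings. JUN, a subunit of the factor AP-1, was the 1 of 17 whose labels did not overlap, against 7.63% of all genes, at 63.8 to 116.4 FPKM under the WT label and 118.0 to 147.8 FPKM under the other.

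Cytokines made in response to calgranulins differed in how they followed them, with a median r of 0.418 over the 7 tested, against -0.473 over all genes tested. PTGS2, a prostaglandin synthase, and NLRP3, an inflammasome sensor, were in the same list but are no cytokines and are left out of these counts. TNF had r = -0.332 and the chemokine CCL4 had r = -0.0208, and without WT replicate 1 these were -0.100 and 0.607. IL1A was between 4.03 and 5.69 FPKM and had r = 0.838, and IL10 had r = 0.916 over a range of 4.12 to 7.22 FPKM, and without WT replicate 1 these were 0.975 and 0.574. Of the 7 tested, TNF (difference 1.29, SE 0.41) and CCL4 (difference 2.38, SE 0.36) were higher under the Leptin-overexpressing label at the unadjusted p in limma. Their Benjamini-Hochberg adjusted p in limma was 0.993 and 0.897, no cytokine of the list passed it, and TNF was not called at the unadjusted p without both replicate 1 libraries (difference 1.34). Both genes were higher in 3 of 3 libraries labelled Leptin-overexpressing than in any library labelled WT, which makes 2 of 7 without overlap, against 7.63% of all genes tested and 1.98% called higher.

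Calprotectin carries arachidonic acid to the phagocyte NADPH oxidase, the enzyme of the oxidative burst, and 5 of the 8 listed oxidase genes were tested. Their differences between the labels were all positive, where 63.1% of all genes tested were positive. The median of 0.05 was no larger than the 0.06 over all genes. None passed the unadjusted p in limma, against 1.98% of all genes higher and 1.19% lower. CYBB, the catalytic subunit, was at 42.7 FPKM in WT replicate 1 and highest in WT replicate 2 at 60.7 FPKM, with r = 0.270 to the calgranulins and 0.727 without WT replicate 1. NCF1 was highest in Leptin-overexpressing replicate 2 at 877.2 FPKM, with r = 0.541.

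Transcription factors of the myeloid lineage ran both with and against the calgranulins. CEBPD was at 289.9, 128.4 and 62.7 FPKM in WT replicates 1, 2 and 3 and at 88.3, 146.1 and 63.9 FPKM in Leptin-overexpressing replicates 1, 2 and 3, which gave r = 0.919. CEBPB, an inflammatory member of the same family, was at 182.1, 131.9 and 41.6 FPKM and at 40.8, 106.3 and 54.9 FPKM in the same order, with r = 0.876. WT replicate 1 was the highest library for both, and without it r was 0.749 and 0.839. CEBPE, which acts late in granulocyte maturation, was at 11.4, 24.8 and 39.7 FPKM in WT replicates 1, 2 and 3 and at 42.3, 27.7 and 35.2 FPKM in Leptin-overexpressing replicates 1, 2 and 3. It was lowest in WT replicate 1 and highest in Leptin-overexpressing replicate 1, with r = -0.962 and rho = -0.886.

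CEBPA, which sets up the myeloid lineage, separated the labels without following the calgranulins. Its level was 13.2, 11.9 and 14.3 FPKM in WT replicates 1, 2 and 3 and 25.2, 26.6 and 20.8 FPKM in Leptin-overexpressing replicates 1, 2 and 3. The 3 libraries labelled Leptin-overexpressing were all above the 3 labelled WT, as for 7.63% of all genes tested in either direction, with a difference of 0.83 (SE 0.16) that passed the unadjusted p in limma, and the Benjamini-Hochberg adjusted p was 0.993. CEBPA had r = -0.268 to the calgranulins, and 0.226 without WT replicate 1. MYB, a factor of immature blood cells, also passed the unadjusted p in limma (difference 0.51, SE 0.19) at only 1.34 to 3.47 FPKM. MYB lost this call under 5 of 14 alternative settings. In all, 2 of the 11 regulators tested passed, against 1.98% of all genes tested called higher. SPI1, the lineage factor PU.1, was highest in Leptin-overexpressing replicate 2 at 1062 FPKM and had r = 0.591.

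**Figure D4:**
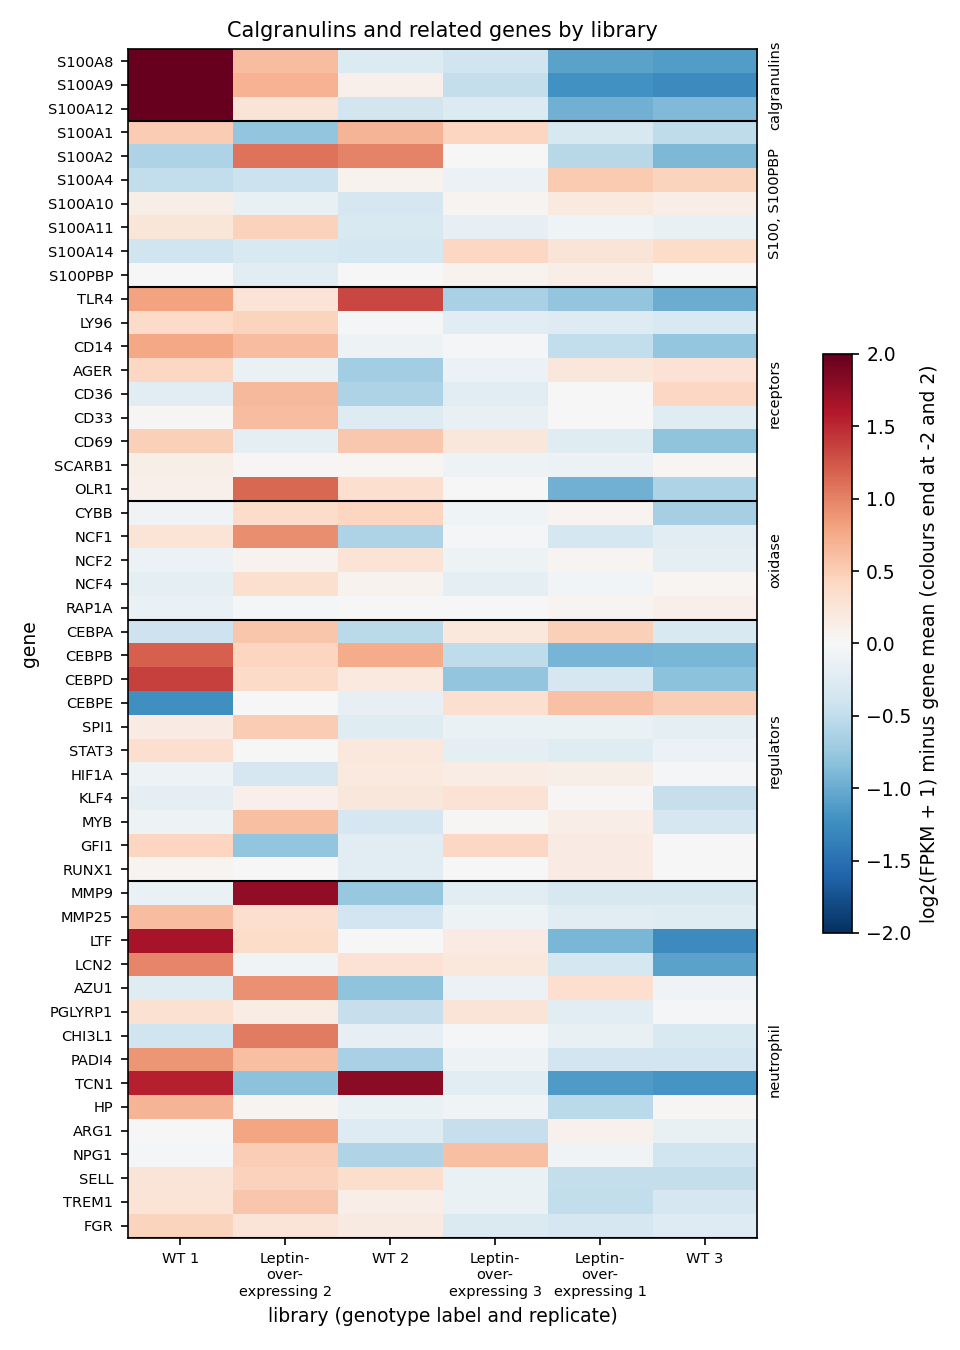
Heat map of log2(FPKM + 1) minus the gene's mean over the 6 libraries, with genes in rows by role and libraries in columns ordered by calgranulin level. The calgranulin rows reach the end of the colour scale in WT replicate 1. CD14, CEBPB, CEBPD and LTF are also highest there but stay short of that end, and CEBPE and S100A4 have their lowest level there.

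Markers of other cell types that a PBMC preparation can carry were compared with the calgranulins as whole lists. Of 41 neutrophil and granulocyte symbols, 17 had a row and 15 were tested, and none of the 17 was at 0 in any library. Their summed level was 2089, 1962 and 1341 FPKM in WT replicates 1, 2 and 3 and 1334, 2747 and 1613.5 FPKM in Leptin-overexpressing replicates 1, 2 and 3. The sum was highest in Leptin-overexpressing replicate 2 and second in WT replicate 1, with r = 0.700 on the log2 scale to the calgranulins and 0.984 without WT replicate 1, and 7 of the 15 tested were highest in WT replicate 1, against 11.2% of all genes tested. Among the defining markers, MMP8 of the neutrophil granules was at 9.74 FPKM in WT replicate 1 and at 0.0329 to 1.20 FPKM in the other 5, LTF (lactoferrin) had r = 0.959, MMP25 had r = 0.888, and MMP9 had r = 0.282 with its highest level, 225.3 FPKM, in Leptin-overexpressing replicate 2. Without WT replicate 1, r was 0.910 for LTF, 0.686 for MMP25 and 0.712 for MMP9. The part of neutrophil RNA in the calgranulin levels was not tested.

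Between the labels, 2 of the 15 neutrophil genes were higher under the Leptin-overexpressing label at the unadjusted p in limma, against 1.98% of all genes tested. They were AZU1 (difference 0.75) and NPG1 (difference 0.68), both granule proteins at a few FPKM with r to the calgranulins of -0.0466 and 0.206, and of 0.288 and 0.461 without WT replicate 1. Neither passed the adjusted p, and the unadjusted call was lost under 7 of 14 alternative settings for AZU1 and 4 of 12 for NPG1. The summed level of the list lay between 1341 and 2089 FPKM under the WT label and between 1334 and 2747 FPKM under the Leptin-overexpressing label.

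Monocyte markers, of which 16 of 20 symbols had a row, summed to 1372 to 1682 FPKM under the WT label and 1670 to 2177 FPKM under the Leptin-overexpressing label, with r = 0.386 to the calgranulins and 0.673 without WT replicate 1. CSF1R, the monocyte growth factor receptor, had r = 0.0361 and 0.244 without WT replicate 1. Of 16 tested, 2 passed the unadjusted p in limma, against 1.98% of all genes called higher. They were AIF1 (difference 0.54) and CLEC12A (difference 0.59), and neither passed the adjusted p. The unadjusted call was lost under 6 of 14 alternative settings for AIF1 and 3 of 13 for CLEC12A. T and NK cell markers, with 20 of 20 tested, summed to 1212 to 2058 FPKM and had r = -0.294, and -0.833 without WT replicate 1.

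B cell markers ran against the calgranulins. Their summed level was 671.7, 991.6 and 1143.5 FPKM in WT replicates 1, 2 and 3 and 1030.3, 776.2 and 983.0 FPKM in Leptin-overexpressing replicates 1, 2 and 3. The libraries highest in calgranulins, WT replicate 1 and Leptin-overexpressing replicate 2, were the lowest in B cell markers, and r was -0.959, or -0.921 without WT replicate 1. CD79A had r = -0.904 and MS4A1, which encodes CD20, had r = -0.895, and without WT replicate 1 these were -0.605 and -0.533. The median r of the list was -0.825, against -0.473 over all genes tested. Without WT replicate 1 the medians lay close together, at -0.533 and -0.463. The part of B cell RNA in this was not tested.

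The summed red blood cell and platelet markers were also highest in WT replicate 1, where 2 of 3 and 6 of 11 of their rows peaked. Of the rows tested, 1 of 2 and 6 of 10 peaked there, against 11.2% of all genes tested. HBB, the beta chain of haemoglobin, was at 211.4, 59.5 and 19.2 FPKM in WT replicates 1, 2 and 3 and at 17.7, 25.0 and 97.1 FPKM in Leptin-overexpressing replicates 1, 2 and 3, with r = 0.759 to the calgranulins over 6 libraries and 0.337 without WT replicate 1. Platelet markers summed to 598.3, 266.1 and 408.9 FPKM and to 531.9, 573.2 and 211.0 FPKM in the same order, with r = 0.395, and 0.00853 without WT replicate 1. Red blood cell markers, with 3 of 11 symbols in the table and HBM listed at 0 in 2 libraries, summed to 25.1 to 218.9 FPKM under the WT label and 21.8 to 102.6 FPKM under the Leptin-overexpressing label. Of 10 adipocyte symbols, only RETN, LIPE and PNPLA2 had a row, and ADIPOQ, PLIN1 and FABP4 had none. The list can therefore not show adipocyte RNA. Its 3 rows summed to 44.7 to 65.2 FPKM under the WT label and 53.9 to 71.9 FPKM under the other. The sum had r = 0.731 to the calgranulins and 0.919 without WT replicate 1. Of these, RETN, which encodes resistin, had r = 0.912 and rho = 1, and r = 0.995 without WT replicate 1. The other rows of the list, LIPE and PNPLA2, had r = -0.0776 and 0.615, and without WT replicate 1 these were 0.818 and 0.752. None of the tested T and NK cell, B cell, platelet, red blood cell and adipocyte genes passed the unadjusted or adjusted p in limma between the labels. Among all genes tested, 1.98% were higher and 1.19% lower at the unadjusted p, and 0.00932% passed the adjusted p. The part of these cells in the calgranulin levels was not tested.

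The genes most like the calgranulins across libraries were sought among 376 genes with a symbol, tested, not calgranulins and with an SD of log2(FPKM + 1) of at least 0.5. The 10 with the highest r to the calgranulin mean over 6 libraries were SERPINB1 (0.970), LMNA (0.969), MEGF9 (0.967), LTF (0.959), OSCAR (0.948), BMX (0.930), CH242-183C8.3 (0.928), ARG2 (0.928), RGS2 (0.926) and TPPP3 (0.921). All 10 were highest in WT replicate 1, which follows from the choice, since the calgranulin profile peaks there. Without that library r lay between 0.670 for BMX and 0.978 for OSCAR.

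SERPINB1, an inhibitor of neutrophil proteases, was at 488.2, 217.9 and 148.2 FPKM in WT replicates 1, 2 and 3 and at 187.1, 257.5 and 174.5 FPKM in Leptin-overexpressing replicates 1, 2 and 3. OSCAR, an activating receptor of myeloid cells, was at 28.9, 13.8 and 8.18 FPKM and at 9.91, 22.7 and 14.1 FPKM in the same order. For both, WT replicate 1 was highest, Leptin-overexpressing replicate 2 second and WT replicate 3 lowest, as for S100A8 and S100A9. LTF, the iron-binding protein lactoferrin, was at 25.6, 7.47 and 2.48 FPKM and at 3.49, 9.92 and 8.47 FPKM, and ran in the order WT replicate 1, Leptin-overexpressing replicate 2, Leptin-overexpressing replicate 3 and WT replicate 2.

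The 5 least alike were SLAMF8 (-0.988), NSUN3 (-0.980), CH242-307O4.3 (-0.972), CEBPE (-0.962) and CD200R1 (-0.962), each lowest in WT replicate 1, as the choice again implies. SLAMF8, a receptor of the SLAM family on myeloid cells, was at 0.804, 3.80 and 5.31 FPKM in WT replicates 1, 2 and 3 and at 4.88, 2.10 and 3.30 FPKM in Leptin-overexpressing replicates 1, 2 and 3. CD200R1, an inhibitory receptor, was at 7.06, 18.4 and 30.3 FPKM and at 23.9, 16.4 and 16.6 FPKM in the same order. Over all genes tested the median r to the calgranulins was -0.473, and 3.03% had r above 0.8.

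**Figure D5:**
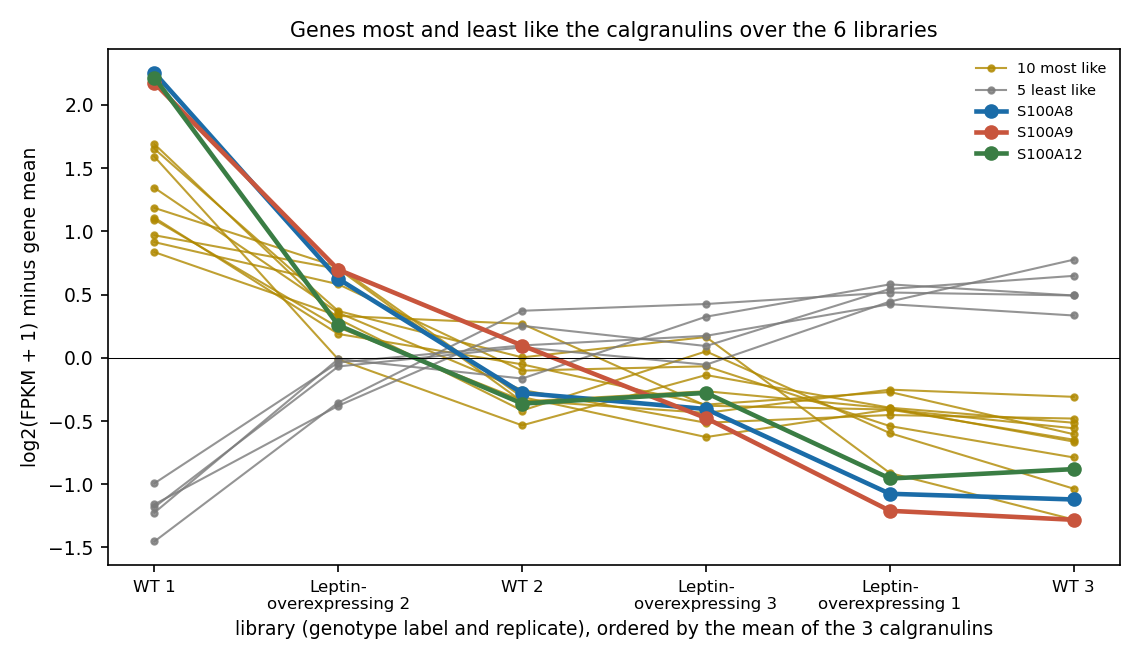
Log2(FPKM + 1) minus the gene's mean in each library for the 3 calgranulins, the 10 genes most like them and the 5 least like them. The 10 genes peak with the calgranulins in WT replicate 1, and the 5 least alike have their lowest point there.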

How the data were processed

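PBMC RNA of 6 pigs was sequenced by the study in strand-specific paired-end libraries. The authors deposited 1 table of FPKM per gene and library. The study's methods name Bowtie and RSEM on a release of the Ensembl transcriptome, whereas the submitters' processing notes list FastQC, STAR 2.5, Cuffnorm and DESeq 1.22.1, and which of them made these values was not settled. The table's own log2 fold change, p-value, FDR and significance columns hold the authors' comparison and were not used. Columns were matched to samples by animal code, with 0 left unmatched. The replicates are different animals.

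Differences were fitted with limma 3.58.1 (lmFit and eBayes) in R 4.3.3 on log2(FPKM + 1), genotype label only, over 10735 genes that reached 1 FPKM in 3 or more libraries. Tests were two-sided, and p-values were adjusted by Benjamini-Hochberg over all of them. Fold changes on this scale understate those of low genes. The limma step was tried on simulated data, and the correlations, ratios and ranks were not. Correlations, ratios and ranks were computed in Python 3.11.15 with pandas 2.3.3. The r to the calgranulins is Pearson's r of a gene's log2(FPKM + 1) with the mean of the 3 centred calgranulin profiles.

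FPKM carry no counts, so the depth is unknown and no counting interval can be had. The 3 libraries of each label set the precision. Values under 0.1 were too few to read the size of 1 read from them.

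The calgranulins and the gene lists were chosen with earlier results of these data known. Genes named are the calgranulins, LEP, genes of the role lists, the first 4 markers of each cell type that have a row and those past the unadjusted p, the 10 genes most and 5 least like the calgranulins, and neighbours in the S100 cluster. Alternatives were a pseudocount of 0.1, other filters, median-of-ratios scaling, a replicate block, other variance settings, and libraries left out. Not every gene of the lists is reported here by name, and no sequence is shown.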

Additional observations from a re-analysis of the deposited data

How the results depend on the processing

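The labelled differences of S100A8, S100A9 and S100A12 were negative in 10 of 12 alternatives and positive in 2, those without WT replicate 1. The other filters and the replicate block are among the 10, although they cannot change a gene's own difference. Leaving out each replicate in turn gave -1.27 to 0.41, -1.47 to 0.26 and -1.25 to 0.30, and leaving out both replicate 1 libraries gave 0.61 for S100A12. Median-of-ratios scaling gave -0.64, -0.73 and -0.72. The lowest pairwise r of 0.962 ranged from 0.951 to 0.980 with 1 replicate left out and was 0.934 without both replicate 1 libraries. Deviations from label means, an alternative chosen after seeing the data, gave 0.959. For genes tested in limma, the 213 higher at the unadjusted p became 135 to 608 with 1 replicate left out (608 without WT replicate 3, 135 without Leptin-overexpressing replicate 1) and 104 without both replicate 1 libraries. The 128 lower became 95 to 238 (238 without WT replicate 3) and 249 with median-of-ratios scaling, which left 167 higher. The 1 gene at the adjusted p became 0 to 3 with 1 replicate left out, and 0 with at least 1 FPKM in every library, without both replicate 1 libraries and with no moderation of the variance. The cause was not tested.

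With the replicate number as a block, the calgranulin differences stayed at -0.57, -0.66 and -0.65, as they must where both labels hold the same replicate numbers. With this block, 2 genes passed the adjusted p. Same-numbered libraries did not deviate together (correlations of -0.284, 0.135 and -0.00728, 1 of 3 best with its own number), so the numbers were not used as pairs.

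Of the listed genes past the unadjusted p, CEBPA and CCL4 kept it in 14 of 14 alternatives, run for these genes after seeing the data, and TNF in 12 of 14, losing it without both replicate 1 libraries and with no moderation of the variance. AZU1 kept it in 7 of 14, AIF1 in 8 of 14, MYB in 9 of 14, NFKBIA in 10 of 14, NPG1 in 8 of 12 and CLEC12A in 10 of 13, and no direction turned. Median-of-ratios scaling ended the call for AIF1, AZU1, MYB and NFKBIA. With single libraries left out, AIF1 lost it without WT replicates 1 or 3 or Leptin-overexpressing replicates 2 or 3, AZU1 without WT replicates 1 or 2 or Leptin-overexpressing replicates 1 or 2, MYB without WT replicates 2 or 3 or Leptin-overexpressing replicate 2, NFKBIA without WT replicate 2 or Leptin-overexpressing replicate 2, NPG1 without WT replicate 2 or Leptin-overexpressing replicates 2 or 3, and CLEC12A without WT replicate 3 or Leptin-overexpressing replicate 1. Of 168 list medians under the alternatives, 161 moved by less than the spread between replicates. These were run on the full lists, S100PBP, PTGS2 and NLRP3 included, and not on the counts without them.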
